A study of Mus musculus with 9 samples.

Results

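Mitochondria keep a ribosome of their own, built from RNAs encoded in mitochondrial DNA and from proteins encoded in the nucleus. It translates the small set of messages for core subunits of the respiratory chain and ATP synthase. Its proteins carry the symbols Mrpl, for the large subunit that joins amino acids, and Mrps, for the small subunit that reads the message. They are translated in the cytosol and imported. Some descend from proteins of the bacterial ribosome and others were added in mitochondria.

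These genes were read on arrays of the mouse neuroblastoma line N1E-115. A probe set was taken where the platform annotation gave it exactly 1 gene symbol and that symbol began with Mrpl or Mrps followed by a number. A probe set is a group of short probes that reads 1 transcript or a few related ones. The rule found 127 of the 22626 probe sets tested, for 74 of the 12393 genes with 1 symbol, of which 47 are named for the large subunit and 27 for the small subunit. The genes lie on 17 chromosomes. No probe set was removed for low values, so all 74 were tested. The rule follows the symbol: Mrps18a and Mrps30, counted here with the small subunit, encode proteins that solved structures place in the large subunit. Mrps36 was later assigned to the oxoglutarate dehydrogenase complex.

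Total RNA of 3 groups was hybridised, with 3 arrays each, lettered A, B and C. The groups were N1E-115 cells overexpressing mouse Tcof1, cells with wildtype Tcof1, and cells with Tcof1 knocked down. Treacle, the product of Tcof1, works in the nucleolus, where the RNA genes of the cytosolic ribosome are transcribed. The sources used here do not state the means of raising or lowering Tcof1, whether a group was 1 clone, or whether arrays of a group came from separate cultures. P-values therefore speak of the spread between these arrays only, and that spread may be technical. In bulk RNA, fewer cells with a transcript and less of it per cell cannot be told apart.

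The 3 probe sets of Tcof1 differed by 0.39 to 0.87 on the log2 scale between overexpressed and wildtype arrays, and 1 of them passed (limma, adjusted p = 0.0241). Between knockdown and wildtype arrays they differed by 0.06, -0.22 and -0.40 and none passed, so "knockdown" below means the arrays so labelled. Array medians lay between 164.1 and 185.95 intensity units. Of 12 neuroblastoma markers 11 were measured, and all but Nefl (mean of 21.8 units) had means above 100 units in each group. Their summed intensities were 35302 to 39202 in overexpressed, 41872 to 45470 in wildtype and 43407 to 45833 in knockdown arrays. Chgb, at a mean of 16567 units, was the brightest of them. Of these markers 1 rose and 3 fell in overexpressed over wildtype arrays, among them Ache, which encodes acetylcholinesterase (-1.40 ± 0.14 SE, adjusted p = 0.000435). Summed markers of fibroblasts (6 of 6 measured) lay between 376.1 and 641.2, of blood cells (5 of 5) between 419.7 and 709.6 and of glia (3 of 5) between 216.6 and 385.3. The part of the neuroblastoma markers' shift in the results below was not tested.

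In overexpressed over wildtype arrays, 14 of the 74 genes rose, 2 fell and 58 did not pass. The rises were of 1.25- to 2.29-fold and included Mrps25, Mrps26, Mrpl18 and Mrpl42, while Mrpl24 and Mrpl15 fell. Of the small subunit genes 8 rose and 0 fell, and of the large subunit genes 6 rose and 2 fell. Values are log2 differences ± SE from limma on log2(intensity + 16), where a difference of 1 is 2-fold. A call is a Benjamini-Hochberg adjusted p under 0.05 over all 22626 probe sets, and each gene was read by its brightest probe set. The shares are 18.9% of the genes higher and 2.70% lower. Among all 12393 genes 5.04% were called higher and 6.22% lower. Among the 5818 genes within the brightness range of these 74, a background chosen after the data were seen, 9.06% were called higher and 10.6% lower. That range ran from 230.6 to 3751.6 units and was not matched gene by gene. The median brightness of the 74 genes was 1125.3 units, beside 236.2 over all genes. The median difference was 0.11, beside -0.03 over all genes and -0.01 over genes in that range. Of the 74 differences, 55 were above 0 and they ran from -0.93 to 1.19. In 24 genes all 3 overexpressed arrays lay above all 3 wildtype arrays and in 5 genes below, and the 16 called genes are among these. The same held for 13.8% and 16.1% of all genes, and for 1261 and 1298 of the 5818 genes in that brightness range.

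The count of 16 was lower whenever 1 of the 6 arrays compared was left out. Leaving out an overexpressed array gave 7 calls (A), 9 (B) or 10 (C), and leaving out wildtype A or B gave 9 or 8. Without wildtype C it was 14. Calls over all genes, 1396 with all arrays, were 1553 without wildtype C and between 706 and 990 without each of the others. Mrps25, Mrps26, Mrps7, Mrpl18 and Mrpl24 passed in each of these fits. No gene of the family passed when a change had to exceed 1.5-fold, and of all genes 20 higher and 40 lower ones did.

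**Figure D1:**
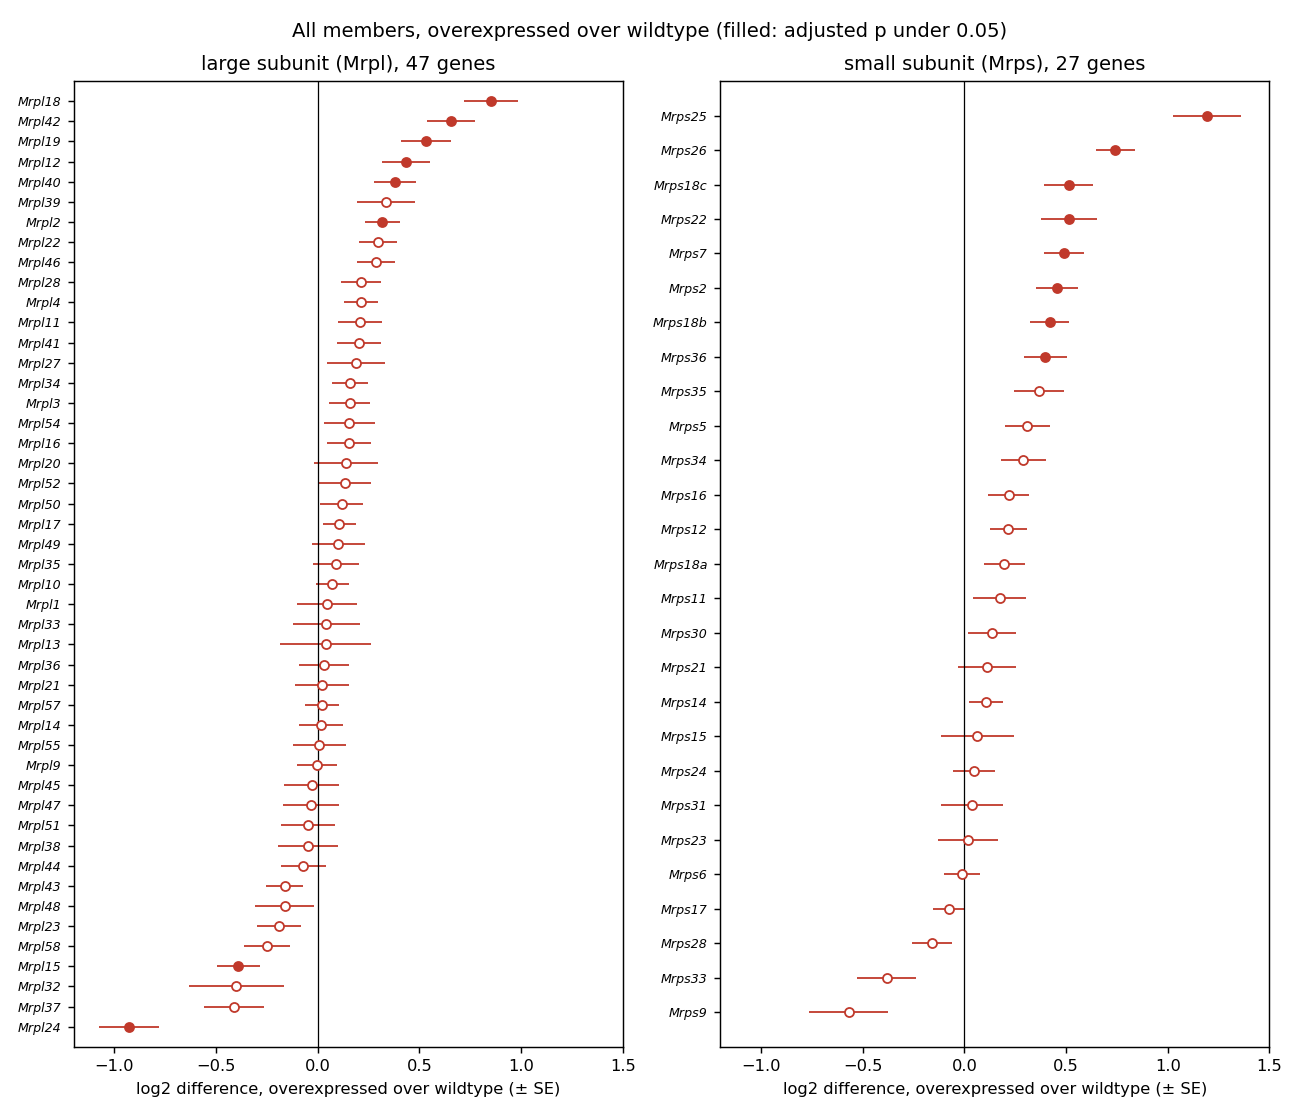
Log2 difference (± SE) of each of the 74 genes in overexpressed over wildtype arrays, ordered by size within the large subunit (left, 47 genes) and the small subunit (right, 27 genes), with filled points for adjusted p under 0.05. The 8 called small subunit genes all lie above 0, and Mrpl24 at -0.93 stands below the other large subunit genes.

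For 4 genes the 250 bases before the transcription start are printed. They had the smallest p in limma among the genes called in overexpressed arrays over both other groups. Mrps26, Mrps2 and Mrpl18 rose over both, and Mrpl24 fell below both. Mrps18b and Mrps18c also rose over both but had larger p and are not shown. The sequences are RefSeq's for the mouse assembly GRCm38.p6, in the gene's direction, with the start site just after the last base. They come from chr2:130563507-130563756 (plus strand) for Mrps26, chr2:28467816-28468065 (plus) for Mrps2, chr17:12916092-12916341 (minus) for Mrpl18 and chr3:87919294-87919543 (plus) for Mrpl24. Capitals mark the ETS motif CCGGAAG, or its reverse complement, which is the core that GABPA and other ETS factors bind.
Mrps26: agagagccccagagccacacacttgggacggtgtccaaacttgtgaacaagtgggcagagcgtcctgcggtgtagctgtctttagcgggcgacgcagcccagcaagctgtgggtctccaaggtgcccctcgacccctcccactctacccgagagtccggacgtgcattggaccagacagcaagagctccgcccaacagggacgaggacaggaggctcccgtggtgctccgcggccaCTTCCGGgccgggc
Mrps2: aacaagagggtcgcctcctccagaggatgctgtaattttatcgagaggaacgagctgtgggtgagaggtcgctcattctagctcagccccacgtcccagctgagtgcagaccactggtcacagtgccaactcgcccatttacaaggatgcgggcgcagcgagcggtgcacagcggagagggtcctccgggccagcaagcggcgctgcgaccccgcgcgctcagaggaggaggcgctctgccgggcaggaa
Mrpl18: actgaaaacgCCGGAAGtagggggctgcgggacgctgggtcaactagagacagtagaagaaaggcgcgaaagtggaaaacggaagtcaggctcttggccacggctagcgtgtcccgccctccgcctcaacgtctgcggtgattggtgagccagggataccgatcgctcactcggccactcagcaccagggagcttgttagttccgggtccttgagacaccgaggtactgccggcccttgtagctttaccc
Mrpl24: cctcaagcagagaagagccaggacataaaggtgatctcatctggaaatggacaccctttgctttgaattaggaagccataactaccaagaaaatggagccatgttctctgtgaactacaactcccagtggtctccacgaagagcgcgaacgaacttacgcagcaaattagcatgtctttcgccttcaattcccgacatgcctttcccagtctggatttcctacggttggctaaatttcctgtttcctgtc
The motif begins 14 bases before the start of Mrps26, on the opposite strand, and 240 bases before that of Mrpl18. It was not among these bases of Mrps2 or Mrpl24, nor were the 3 other motifs searched.

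Those motifs were that of NRF1, a regulator of nuclear genes for mitochondria (GCGC, then any base, then TGCGC), AAGATGGCG of YY1 and the E-box CACGTG that MYC family proteins bind. They were chosen with the array values known and searched on both strands from 250 bases before to 50 after the start. In Mrps26 this window also held the NRF1 motif, which did not lie wholly within the printed bases. The table held a window for 65 of the 74 genes and for 27025 genes in all. The ETS motif was in 24 of the 65 (36.9%) and in 9.93% of all genes. NRF1's was in 12 (18.5%, all genes 5.19%), YY1's in 7 (10.8%, all genes 1.64%) and the E-box in 5 (7.69%, all genes 8.09%). At least 1 of the ETS, NRF1 and YY1 motifs was in 38 of the 65 (58.5%) and in 15.1% of all genes. These motifs were thus spread over the family and not limited to its called genes: they were in 7 of the 13 risen genes with a window and in 31 of the 51 that did not pass. A match is a description of letters and not a binding site, and the comparison with all genes is not matched for base composition.

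In the small subunit the largest rises were of 2 proteins without a bacterial relative, Mrps25 and Mrps26. Mrps25 read 885.5, 825.8 and 887.7 units in the overexpressed arrays, 321.5, 319.9 and 490.3 in the wildtype arrays and 625.1, 487.4 and 616.6 in the knockdown arrays (A, B and C in turn). The overexpressed arrays lay above all others, and knockdown B lay just below wildtype C. Mrps25 rose by 1.19 ± 0.17 (limma, adjusted p = 0.0019). Mrps26 read 1246.2, 1182.8 and 1183.7 in overexpressed, 740.1, 663.2 and 739.1 in wildtype and 797.6, 835.5 and 931.5 in knockdown arrays. Its 3 groups did not overlap, and it rose by 0.74 ± 0.09 (adjusted p = 0.0013). Mrps22, mutated in inherited mitochondrial disease in people, read 1264.0, 1114.5 and 982.6 in overexpressed and 623.9, 862.3 and 868.5 in wildtype arrays, where array A was low. It rose by 0.51 ± 0.14 (adjusted p = 0.0421). Mrps36 read 1680.2, 1356.8 and 1598.5 in overexpressed, 1247.0, 1217.1 and 1038.7 in wildtype and 1609.6, 1641.9 and 1531.9 in knockdown arrays. It stood lowest in the wildtype group and rose by 0.40 ± 0.11 (adjusted p = 0.0380).

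Of the small subunit proteins with a bacterial relative, 4 rose. Mrps7, a protein of the subunit's head, read 1063.6, 1195.7 and 1063.2 in overexpressed and 837.7, 765.7 and 746.5 in wildtype arrays, and rose by 0.49 ± 0.10 (limma, adjusted p = 0.0108). Mrps2 read 1573.2, 1784.7 and 1534.2 in overexpressed, 1041.3, 1250.2 and 1272.4 in wildtype and 1229.2, 1144.2 and 1153.2 in knockdown arrays. Its wildtype and knockdown arrays overlapped and its overexpressed arrays lay above them, with a rise of 0.45 ± 0.10 (adjusted p = 0.0189). Mammals have 3 relatives of the single bacterial protein S18, and 2 of them were called. Mrps18b read 2805.5, 2674.0 and 3219.0 in overexpressed and 2337.5, 2064.5 and 2082.1 in wildtype arrays, and rose by 0.42 ± 0.10 (adjusted p = 0.0212). Mrps18c read 1227.1, 1161.8 and 1182.3 against 825.7, 745.7 and 925.1, and rose by 0.51 ± 0.12 (adjusted p = 0.0228). Mrps18a gave 0.20 ± 0.10 and did not pass (adjusted p = 0.291), with wildtype array A at 2740.3 among the overexpressed arrays. The difference between these paralogs was not tested.

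The 19 small subunit genes that did not pass ran from Mrps9 at -0.57 ± 0.19 (limma, adjusted p = 0.0969) to Mrps35 at 0.37 ± 0.12 (adjusted p = 0.0950). The others below 0 were Mrps33, Mrps28, Mrps17 and Mrps6. Those above 0 were Mrps5, Mrps34, Mrps16, Mrps12, Mrps11, Mrps30, Mrps21, Mrps14, Mrps15, Mrps24, Mrps31 and Mrps23 besides Mrps35 and Mrps18a. The median over the 27 genes was 0.20, over the 16 classed with a bacterial relative 0.19 and over the 11 others 0.29. The class was taken from the number in the symbol, so a relative under another number may be missed. Wildtype array A gave the highest reading of Mrps9 (891.0) and Mrps33 (1256.3).

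**Figure D2:**
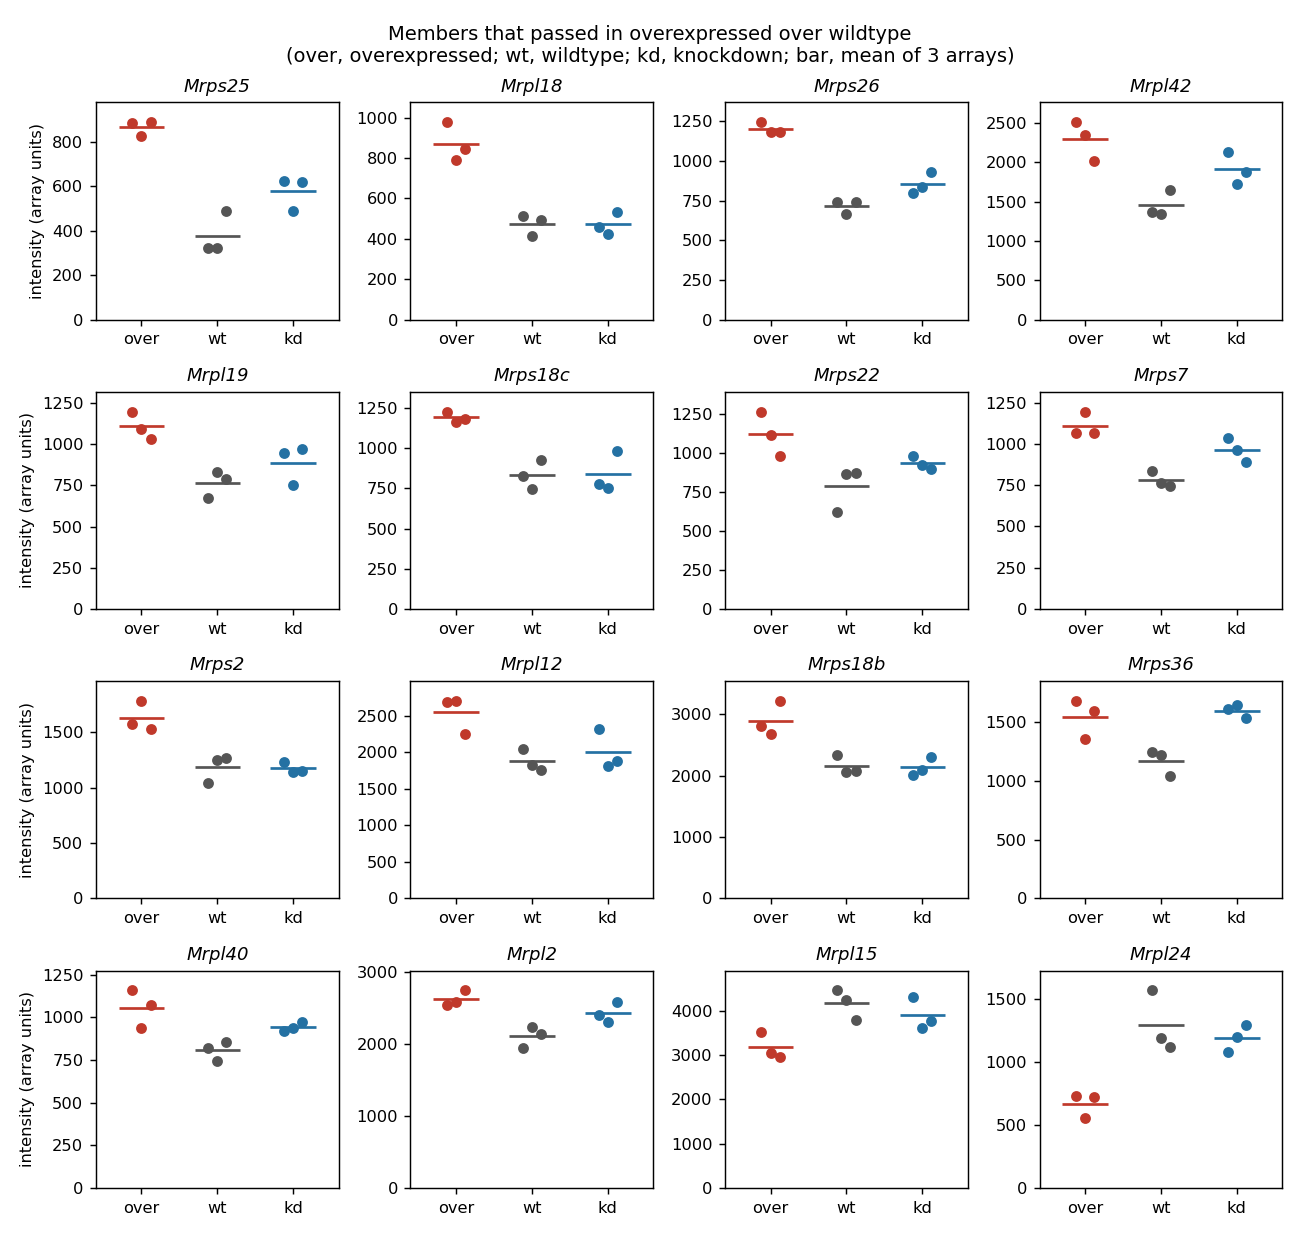
Intensity on each of the 9 arrays for the 16 genes called in overexpressed over wildtype arrays, ordered by difference, with points for arrays A, B and C from left to right and a bar for the mean of 3. The knockdown arrays of Mrps36 lie at the overexpressed level, whereas Mrpl18, Mrps2, Mrps18b and Mrps18c have knockdown arrays at the wildtype level.

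In the large subunit, Mrpl18 gave the largest rise. Its bacterial relative binds the 5S ribosomal RNA. It read 977.3, 787.8 and 844.1 in overexpressed, 513.1, 414.8 and 494.4 in wildtype and 457.3, 424.0 and 532.0 in knockdown arrays. The wildtype and knockdown arrays shared 1 range and the overexpressed arrays lay above it, with a rise of 0.85 ± 0.13 (limma, adjusted p = 0.0031). Mrpl42, without a bacterial relative, read 2509.1, 2346.5 and 2017.5 in overexpressed, 1361.2, 1345.4 and 1645.4 in wildtype and 2135.0, 1728.7 and 1877.6 in knockdown arrays. It rose by 0.65 ± 0.12 (adjusted p = 0.0068), with the knockdown arrays above the wildtype ones and partly among the overexpressed ones. A second Mrpl42 probe set, dim at a mean of 22.6 units, gave -1.12 ± 0.38 (adjusted p = 0.0972), and the mean of both gave -0.23 for the gene.

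Mrpl19, which sits where the subunits meet in bacteria, read 1198.0, 1093.6 and 1032.3 in overexpressed and 671.8, 828.3 and 786.3 in wildtype arrays. It rose by 0.53 ± 0.12 (limma, adjusted p = 0.0220), and its second bright probe set rose by 0.53 ± 0.11 (adjusted p = 0.0143). The last of its 3 probe sets had a difference below 0 and did not pass. Mrpl12, the relative of the bacterial stalk protein that recruits translation factors, read 2681.7, 2699.4 and 2252.5 against 2049.5, 1828.0 and 1752.6 and rose by 0.43 ± 0.12 (adjusted p = 0.0406). Mrpl2 and Mrpl40, beyond the 12 risen genes that the naming rule takes and named with their values seen, rose by 0.32 ± 0.08 and 0.38 ± 0.10 (adjusted p = 0.0385 and 0.0419). Mrpl2 is related to the bacterial L2 protein near the catalytic centre, and Mrpl40 lies in the human region deleted in 22q11 syndrome.

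Mrpl24 fell the most. It read 733.9, 557.2 and 719.0 in overexpressed, 1569.4, 1191.0 and 1123.0 in wildtype and 1076.9, 1200.2 and 1296.1 in knockdown arrays. Every overexpressed array lay below every other array, and the difference was -0.93 ± 0.15 (limma, adjusted p = 0.0036). It is read by a single probe set. Mrpl15 read 3536.6, 3042.0 and 2966.1 in overexpressed and 4465.2, 4245.2 and 3799.1 in wildtype arrays, a difference of -0.39 ± 0.10 (adjusted p = 0.0390). That call rests on 1 of 7 probe sets (its name ends in _x_at, a kind whose probes may also match other transcripts). The other 6 did not pass and 2 of them, at means of 102.0 and 19.6 units, lay above 0. The bright ones gave -0.30 ± 0.18, -0.17 ± 0.09 and -0.37 ± 0.18.

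The 39 large subunit genes that did not pass ran from Mrpl37 at -0.41 ± 0.15 (limma, adjusted p = 0.111) to Mrpl39 at 0.34 ± 0.14 (adjusted p = 0.181). Closest to a call were Mrpl22 (0.29 ± 0.09, adjusted p = 0.0752) and Mrpl46 (0.29 ± 0.09, adjusted p = 0.0829), and both had overexpressed arrays above all wildtype arrays. Mrpl58, a peptidyl-tRNA hydrolase that frees stalled ribosomes, gave -0.25 ± 0.11. Mrpl32, whose processing controls ribosome assembly in mitochondria, gave -0.40 ± 0.23 with overexpressed arrays spread from 540.4 to 1070.9. The median over the 47 genes was 0.09, over the 27 classed by number with a bacterial relative 0.11 and over the 20 others 0.01. The subunits were not tested against each other.

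Several probe sets read the same gene in 33 of the 74 cases. Of the 53 probe sets that are not their gene's brightest, 2 (3.77%) were called higher and 0 lower. Among all genes, each read by its brightest set, 5.04% were called higher and 6.22% lower. The higher share of these 53 sets was thus not above that of all genes. The 2 called sets were the second sets of Mrpl19 and Mrps2, the latter at 0.67 ± 0.15 (limma, adjusted p = 0.0176). In 27 genes at least 2 probe sets had a mean of 100 units or more. In 21 of these all such sets had differences of 1 sign in overexpressed over wildtype arrays. That number was 8 in knockdown over wildtype arrays, where 19 genes had sets of mixed sign, and 15 in overexpressed over knockdown arrays. The second set of Mrps25, at a mean of 148.8 units, gave 0.65 ± 0.22 and did not pass (adjusted p = 0.101), and the third, at 49.0 units, gave 0.16 ± 0.35. The sets of Mrps9 gave -0.57, -0.42, -0.39 and 0.00, and none passed.

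**Figure D3:**
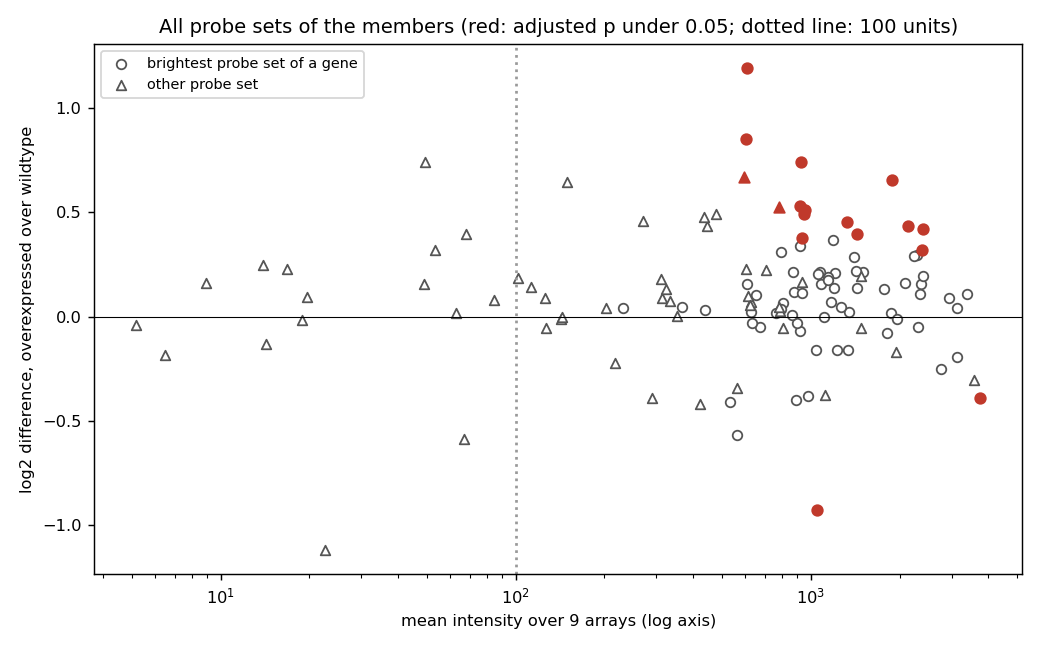
Log2 difference in overexpressed over wildtype arrays of all 127 probe sets against their mean intensity over the 9 arrays (log axis), with circles for a gene's brightest set, triangles for its other sets and red for adjusted p under 0.05. The 18 called sets all lie well above the dotted line at 100 units, and the lowest value, -1.12, belongs to the dim set of Mrpl42.

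In knockdown over wildtype arrays none of the 74 genes was called by limma. At an unadjusted p under 0.05 there were 12 higher genes and 1 lower. The shares were 6.85% and 4.96% of all genes and 8.39% and 7.99% of genes in the family's brightness range. The median difference was 0.09, beside 0.04 over all genes and 0.01 over genes in that range, and 49 of the 74 differences were above 0. Knockdown arrays lay above all wildtype arrays in 15 genes and below in 1. The same held for 9.67% and 6.68% of all genes, and for 605 and 584 of the 5818 genes in that range. Calls were as rare elsewhere, with 0% of all genes higher and 0.00807% (1 gene) lower. Both this comparison and the previous one use the same 3 wildtype arrays.

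The smallest p-values belonged to Mrps36 (0.45 ± 0.11, limma, adjusted p = 0.173), Mrps25 (0.61 ± 0.17, adjusted p = 0.240) and Mrpl42 (0.40 ± 0.12, adjusted p = 0.278), whose array values are given above. Mrps6, related to the bacterial S6 protein, read 1656.5, 1841.5 and 1655.7 in knockdown and 2180.5, 2185.5 and 1910.0 in wildtype arrays. It was the 1 gene whose knockdown arrays all lay lower, at -0.28 ± 0.09 (adjusted p = 0.294). Mrpl21 gave 0.41 ± 0.13 (adjusted p = 0.310), with knockdown array C at 631.8 below wildtype array C at 647.1. Mrps14 read 3697.0, 3751.6 and 3696.3 in knockdown and 2882.2, 3052.4 and 3399.8 in wildtype arrays, and its groups were apart at 0.26 ± 0.09 (adjusted p = 0.314). Mrps7 gave 0.29 ± 0.10 and Mrpl20 0.44 ± 0.16 (adjusted p = 0.320 and 0.355). Without wildtype array C, Mrps25 was called at 0.81 (adjusted p = 0.0401), the only change of a call among the arrays left out here. Calls over all genes also rose in that fit, to 52 higher and 23 lower, beside 0 and 1 with all arrays. Without knockdown array A the median over the 74 genes was 0.04.

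The median over all 74 genes on each array, relative to the wildtype mean, was 0.14, 0.11 and 0.10 in overexpressed, 0.03, -0.01 and -0.02 in wildtype and 0.15, 0.01 and 0.09 in knockdown arrays. The overexpressed arrays were all above the wildtype arrays, and knockdown array B lay among the latter.

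**Figure D4:**
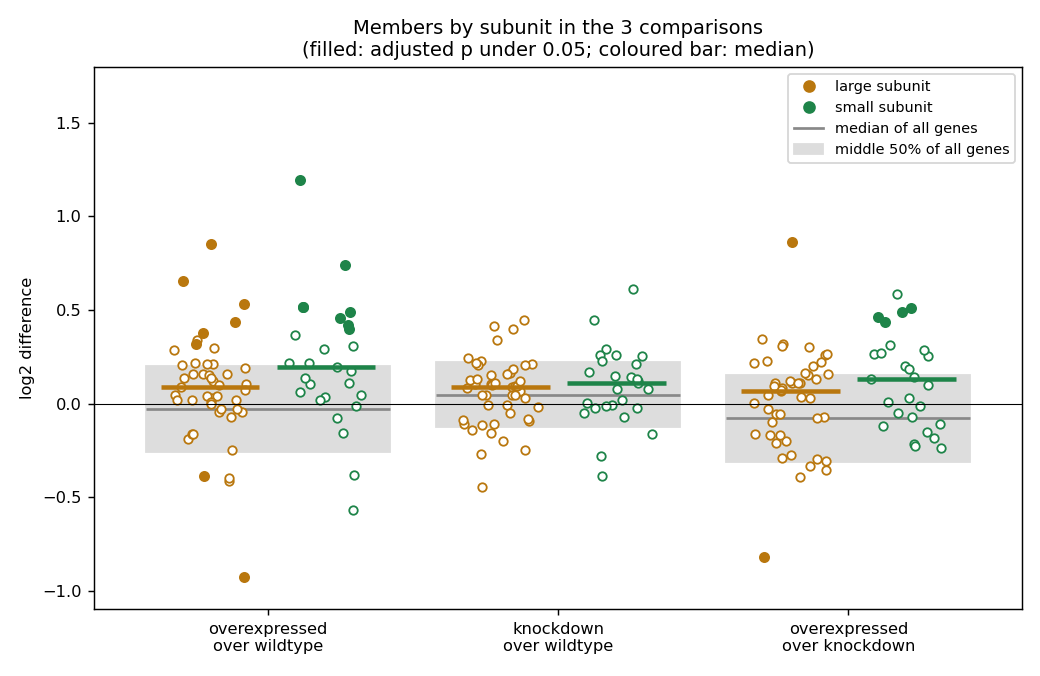
Log2 differences of the 74 genes in the 3 comparisons, by subunit, with filled points for adjusted p under 0.05, coloured bars for the subunit medians, a grey bar for the median of all genes and a grey box for the middle 50% of all genes. The large and small subunit medians, 0.09 and 0.20 in overexpressed over wildtype arrays, lie above the all-gene median of -0.03.

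In overexpressed over knockdown arrays 5 genes were higher and 1 lower, and each had also passed over wildtype. Mrpl18 was higher by 0.86 ± 0.13 (limma, adjusted p = 0.0043), Mrps26 by 0.49 ± 0.09 (adjusted p = 0.0129) and Mrps2 by 0.46 ± 0.10 (adjusted p = 0.0219). Mrps18b was higher by 0.43 ± 0.10 (adjusted p = 0.0233) and Mrps18c by 0.51 ± 0.12 (adjusted p = 0.0288). Mrpl24 was lower, at -0.82 ± 0.15 (adjusted p = 0.0095). The shares of 6.76% higher and 1.35% lower stand beside 3.57% and 5.25% of all genes. Among genes in the family's brightness range they were 6.72% and 8.63%, so the higher share is at the background of that range. Mrps25 gave 0.58 ± 0.17 and did not pass (adjusted p = 0.0595), with all overexpressed arrays above the knockdown ones. For Mrps36 the difference was -0.05 ± 0.11. A probe set of Mrps9 that is not its brightest was called lower at -0.58 (adjusted p = 0.0374). The count of 6 was 2 without overexpressed array A and 3 without knockdown array A or B. Calls over all genes, 1093 with all arrays, were 463 without overexpressed array A. They were 629 without knockdown array A and 590 without knockdown array B. Mrpl18 and Mrpl24 passed in each fit that left an array out. This comparison shares its overexpressed arrays with the first.

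Other genes of mitochondrial gene expression were read from lists. Of the mitochondrial ribosome's proteins under other symbols 4 of 6 listed were measured, and Ict1, which was not, is an older symbol of Mrpl58. Ptcd3, an RNA-binding protein of the small subunit, read 1165.3, 1071.3 and 1128.0 in overexpressed, 584.2, 761.1 and 711.5 in wildtype and 641.8, 847.7 and 715.4 in knockdown arrays. It rose over wildtype by 0.70 ± 0.13 (limma, adjusted p = 0.0070) and was higher over knockdown by 0.61 ± 0.13 (adjusted p = 0.0189). Dap3, the GTP-binding protein of the small subunit, read 2321.7, 2502.8 and 2729.6 in overexpressed and 3389.3, 3459.4 and 2884.1 in wildtype arrays. It fell, with a difference of -0.36 ± 0.10 (adjusted p = 0.0383), and so went the other way from the 8 called small subunit genes above.

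Of 19 measured factors of ribosome assembly and RNA modification in mitochondria (27 listed), 2 rose and 1 fell in overexpressed over wildtype arrays. Mettl17, a small subunit assembly factor, gave 0.69 ± 0.17 (limma, adjusted p = 0.0297) and the assembly GTPase Noa1 0.45 ± 0.12 (adjusted p = 0.0371). Mrm1, a methyltransferase of the large ribosomal RNA, gave -0.65 ± 0.17 (adjusted p = 0.0369). Of 9 measured translation factors (16 listed), Lrpprc, which stabilises mitochondrial messages, rose by 0.51 ± 0.12 (adjusted p = 0.0234). Oxa1l, which inserts the new proteins into the inner membrane, fell (-0.59 ± 0.14, adjusted p = 0.0210). None of the 8 measured mitochondrial aminoacyl-tRNA synthetases (17 listed) passed. Of 8 measured genes of mitochondrial DNA replication and transcription (11 listed), Polg2, the accessory subunit of the DNA polymerase, fell (-0.59 ± 0.13, adjusted p = 0.0161). Medians of the 5 lists lay between -0.09 and 0.21.

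Of 11 nuclear regulators of mitochondrial genes 10 were measured, and none passed on its brightest probe set in either comparison with wildtype. Of their 13 other probe sets 1 was called higher and 1 lower in overexpressed over wildtype arrays. These were a set of Gabpb1, the partner subunit of Gabpa, at 0.67 ± 0.14 (limma, adjusted p = 0.0159) beside 0.32 ± 0.19 on its brightest, and a set of Mycn at -0.68 ± 0.18 (adjusted p = 0.0432) beside -0.24 ± 0.11. Nrf1 gave 0.44 ± 0.19 (limma, adjusted p = 0.204) and Gabpa 0.09 ± 0.15 (adjusted p = 0.815) in overexpressed over wildtype arrays. Ppargc1b, a coactivator of mitochondrial genes, read 330.5, 497.1 and 372.7 in overexpressed, 417.2, 441.6 and 355.7 in wildtype and 153.5, 149.8 and 72.4 in knockdown arrays. Its knockdown arrays were the lowest, at -1.63 ± 0.25 over wildtype (adjusted p = 0.0701), and the overexpressed over knockdown difference of 1.60 ± 0.25 passed (adjusted p = 0.0052). Mycn was lower in overexpressed than in knockdown arrays (-0.50 ± 0.11, adjusted p = 0.0210). In that comparison Mettl17, Mterf3 and Mtg2 of the assembly list and Tfam, which packages mitochondrial DNA, were also called higher and Mtg1 lower. In knockdown over wildtype arrays 0 genes of these 6 lists were called by limma. At an unadjusted p under 0.05 there were between 0 and 6 genes of each list. The most were in the assembly list, where 3 of 19 genes were higher and 3 lower. Of the 10 regulators 2 were higher and 1 lower. Among all genes the shares were 6.85% higher and 4.96% lower.

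**Figure D5:**
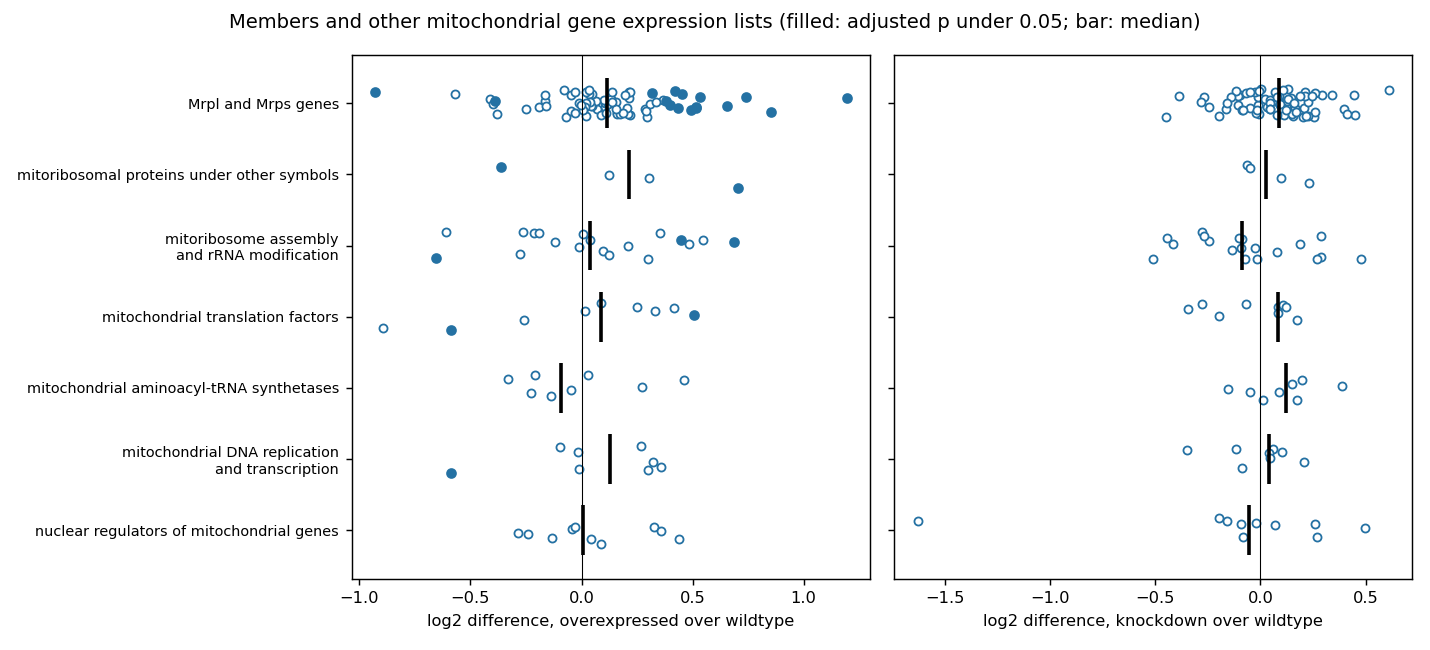
Log2 differences in overexpressed over wildtype (left) and knockdown over wildtype arrays (right) of the 74 Mrpl and Mrps genes and of the 6 other lists, with filled points for adjusted p under 0.05 and a bar for each median. The called genes of the other lists fall on both sides of 0 at left, and none is filled at right, where Ppargc1b lies at -1.63.

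Cytosolic ribosomal protein genes, named Rpl or Rps, gave a median of -0.02 in overexpressed over wildtype arrays, with 2 of 47 higher and 3 lower. In knockdown over wildtype arrays their median was 0.00, with 0 calls by limma and 3 genes at an unadjusted p under 0.05. The difference between both ribosomes' genes was not tested.

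Several Mrpl and Mrps genes start head to head with another gene. Of the 65 with a RefSeq window, 25 had such a neighbour within 1000 bases. Mrps11 and Mrpl46 start 42 bases apart in opposite directions, and gave 0.17 ± 0.13 and 0.29 ± 0.09 in overexpressed over wildtype arrays. Among the risen genes 4 had a measured neighbour and none of these neighbours passed in limma. Tcp1, a chaperonin subunit 238 bases from Mrpl18, gave 0.16 ± 0.09 (adjusted p = 0.319). Hira, beside Mrpl40, gave 0.53 ± 0.19 (adjusted p = 0.110), Helq, beside Mrps18c, 0.14 ± 0.26 (adjusted p = 0.832) and Klc4, beside Mrpl2, -0.59 ± 0.17 (adjusted p = 0.0554).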

How the data were processed

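Total RNA of 9 samples was read on 1-colour arrays. The authors deposited linear intensity values, 1 per probe set and array; their mean without the lowest and highest 2% was about 500.19 on each array, so a common scaling had been applied before deposit. The sources used here name no software, background correction or detection calls. Of 22690 probe sets 64 controls were left out; 20380 had 1 gene symbol in the platform annotation, 691 several and 1555 none. All 74 symbols matched the RefSeq table of assembly GRCm38.p6.

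Values were converted to log2(intensity + 16), which understates changes of dim probe sets, and fitted with limma 3.58.1 in R 4.3.3 (lmFit, eBayes with a mean-variance trend; a mean per group over all 9 arrays). Adjustment by Benjamini-Hochberg covered 22626 probe sets per comparison, with a threshold of 0.05. The brightest probe set stood for a gene. Probe sets were ranked by intensity only for this choice and to name bright and dim ones, and were not compared as amounts of transcript. The number of arrays limits the precision. The fit was tested on simulated data.

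Named were up to 12 higher and 12 lower called members per comparison, by size of difference; with none called, the 8 with the smallest p; the 5 brightest and 5 dimmest; and called genes with probe sets of opposite sign. Members and lists were chosen with earlier results of these data known, as were the motifs and neighbours. Alternatives covered pseudocounts of 1 and 64, a filter at the 40th percentile, scaling, the variance trend, array weights, the letter as a block, a 1.5-fold limit, probe set choice, samples in the fit and leaving out each array.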

Additional observations from a re-analysis of the deposited data

How the results depend on the processing

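In overexpressed over wildtype arrays the 16 calls became 10 with a common array median, 6 without a mean-variance trend and 0 with a 1.5-fold limit. Calls over all genes went from 1396 to 1157 with that median, 824 without the trend and 60 with the limit. The 16 calls ranged from 7 to 14 when 1 array was left out, and counts under the other settings stayed within 1.5 times. In overexpressed over knockdown arrays the 6 calls became 2 without the trend and 0 with the limit, where calls over all genes went from 1093 to 520 and 34. The 6 calls ranged from 2 to 5 when 1 array was left out, and the median became 0.14 with a common array median. In knockdown over wildtype arrays the count ranged from 0 to 1 and the median from 0.044 to 0.10 when 1 array was left out. The mean of all probe sets turned Mrpl42 to -0.23 in overexpressed over wildtype and to -0.16 in knockdown over wildtype arrays, as its dim second set gave -1.12 in the former. The causes of the other shifts were not tested, beyond fewer arrays or a stricter limit by construction. For the called genes named over wildtype, 203 of 288 settings kept direction and call, 84 lost the call and 1 reversed; for those over knockdown 82 of 108 kept it and 26 lost it. Mrps25, Mrps26, Mrps7, Mrpl18 and Mrpl24 passed over wildtype in every setting run for them but the limit.

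With the letter as a replicate block the counts were 17 (14 higher, 3 lower), 0 and 7 in the 3 comparisons; 15 of the 16 genes were kept, Mrps22 was lost and Mrpl22 and Mrps9 were added. The letters are not stated to pair arrays and were not taken as pairs. Same-letter arrays' deviations correlated at -0.04 to 0.20. Arrays of different letters were not set beside them, so these values cannot decide on pairing. Low signal limits the dim probe sets: 16 of the 127 had means under 100 units.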

Other observations

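The brightest probe sets of the family were those of Mrpl15, Mrps14, Mrpl13, Mrpl23 and Mrpl35. Mrpl13 varied most in the knockdown group, at 3807.0, 1841.0 and 3177.0 units, and gave -0.16 ± 0.22 over wildtype. Mrpl23 gave -0.19 ± 0.11 and Mrpl35 0.09 ± 0.11 in overexpressed over wildtype arrays, and neither passed in limma (adjusted p = 0.337 and 0.735). The dimmest were those of Mrpl33, Mrpl1, Mrpl36, Mrpl37 and Mrps9. Mrpl33 lay between 207.7 and 290.2 units on the 9 arrays and Mrpl36 between 375.7 and 553.6, with its 3 knockdown arrays (553.6, 449.1 and 462.0) above the others; its knockdown over wildtype difference of 0.25 ± 0.12 did not pass (adjusted p = 0.503). Mrpl55 read 966.6, 1019.3 and 1019.4 in knockdown, 761.9 to 833.1 in overexpressed and 681.4 to 985.7 in wildtype arrays, where the highest array overlapped the knockdown group, and did not pass (0.34 ± 0.13, adjusted p = 0.378).

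Eme1, which encodes a subunit of a DNA repair nuclease and starts 48 bases from Mrpl27 in the opposite direction, rose in overexpressed over wildtype arrays by 0.85 ± 0.19 (limma, adjusted p = 0.0169), while Mrpl27 gave 0.19 ± 0.14 (adjusted p = 0.516). It was the only measured neighbour of the 25 genes that start head to head with another gene to pass, and was named with its value seen.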
